A study of Nothobranchius furzeri with 185 samples.

Results

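Immediate early and stress genes are described here by 5 symbols, egr1, fosl1a, atf3, dusp1 and gadd45g, in the turquoise killifish Nothobranchius furzeri. Every locus of the deposited gene table whose symbol was a member, ignoring case and a numbered suffix, was kept, which gave 8 of 23564 loci. The symbols egr1, fosl1a, atf3, dusp1 and gadd45g each name a main locus (Nfu_g_1_004681, Nfu_g_1_004633, Nfu_g_1_018748, Nfu_g_1_014630 and Nfu_g_1_009083), and these 5 loci had reads in all 185 libraries. A further pair of loci, Nfu_g_1_018296 and Nfu_g_1_018341, both carry the symbol GADD45G (2 of 3). The eighth locus, Nfu_g_1_013515, also carries the symbol egr1 but had 41 reads in all, was at 0 in 162 libraries and passed no filter on low counts, so it was not tested.

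Immediate early genes are switched on within minutes of a growth factor, nerve activity, injury or stress, through kinase cascades that act on transcription factors already present in the cell. In mammals, egr1 encodes a zinc finger transcription factor, fosl1 (Fra-1) a Fos family subunit of the AP-1 transcription factor, and atf3 a stress-responsive factor of the ATF/CREB family that also pairs with Jun proteins. The gene dusp1 encodes a nuclear phosphatase that switches off the p38 and JNK kinases, while GADD45 gamma is a small protein tied to growth arrest and kinase signalling after DNA damage and other stress. Their transcripts are short-lived, so a level in tissue is known to depend on the minutes to hours before sampling.

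The study sequenced RNA from whole tissues of single fish, named by a code, in 3 experiments. In untreated fish, liver and skin were taken at 5, 12, 20, 27 and 39 weeks of age, with 5 fish for each tissue and age. In the second experiment, brain, liver and skin came from the same 15 fish: 5 given the vehicle DMSO and sampled at 9 weeks, 5 given vehicle and sampled at 27 weeks, and 5 given 15 pM rotenone, an inhibitor of mitochondrial complex I, and sampled at 27 weeks. Treatment lasted 4 weeks and began at 5 or 23 weeks of age, and no rotenone fish was sampled at 9 weeks. In the third, the tail fin of 45 fish was clipped at 10 and again at 20 weeks. These fish fall into 3 lifespan groups of 15, which died at 28.7 to 36.4 weeks (short-lived), 45.1 to 50.3 weeks (middle-lived) or 57.3 to 71.9 weeks (long-lived). The labels used here give neither strain nor sex.

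Libraries held 14.97 to 54.95 M (mega) counted reads, with a median of 30.51 M. Summed brain markers set the brains apart, at 2620 to 3820 CPM (reads scaled to the depth of a library) in brains and at no more than 96.2 elsewhere. Other lists were less clean. Brains held 1820 to 3950 CPM of liver markers, against 41600 to 496000 in livers. Skins held 7060 to 71600 CPM of muscle markers beside 12300 to 46900 of skin markers, so the skin libraries include muscle. The 12-week skin library JM109 held 13500 CPM of liver markers, against 169 to 986 in the other skins. A gene is called below when the adjusted p from edgeR's quasi-likelihood test, with Benjamini-Hochberg adjustment over all loci tested, was under 0.05. Fold changes are on the log2 scale with their standard error (SE). In bulk tissue, fewer cells of a type and less RNA per cell cannot be told apart. Where groups are said below not to overlap, the share of all loci that separate in the same way is not given here. Such a separation is therefore a description of the fish and not a test.

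Levels between genes and tissues were read from the deposited RPKM, which scale reads by gene length and depth. By RPKM egr1 was highest in brain: its mean was 147 ± 53.3 RPKM (SD, n = 5) in 27-week vehicle brains, 114 ± 23.0 in rotenone brains and 89.3 ± 27.8 in 9-week brains. The next group was 27-week vehicle skin at 28.2 ± 12.8 RPKM, and the lowest was 5-week liver at 4.20 ± 2.41. The step from brain to the next group was larger than 1 SD on either side, while all further neighbours in the order overlapped within 1 SD each. In brains egr1 lay at the 97.3 to 98.5 percentile of loci by RPKM. This order rests on library totals, which place brain higher against liver than does the edgeR scaling (TMM) used below. By TMM, egr1 was not called between 9-week brain and liver.

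The 4 other main loci peaked outside the brain. The AP-1 gene fosl1a was the least abundant, with a mean of 3.24 ± 1.4 RPKM in 27-week vehicle skin and 0.266 ± 0.269 in 27-week vehicle liver. For atf3, 27-week vehicle skin (19.3 ± 11.04) and 27-week untreated skin (17.04 ± 6.11) came first and 9-week brain last (1.48 ± 0.575). The same skins led for dusp1, at 26.7 ± 11.2 and 28.7 ± 20.7 RPKM, and 12-week liver was lowest at 1.66 ± 1.17. Thus the highest mean of fosl1a, atf3 and dusp1 lay in 27-week skin from 1 or other experiment. The growth arrest gene gadd45g was highest in 27-week vehicle liver (145 ± 114 RPKM) and 27-week untreated liver (98.1 ± 129), and lowest in 5-week skin (4.22 ± 2.68). Its SD was close to or above its mean in these livers. For each of these 4 loci, neighbouring groups in the order of means overlapped within 1 SD each. Neighbours in a long order lie close in any case, so this overlap does not show that groups are alike.

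**Figure D1:**
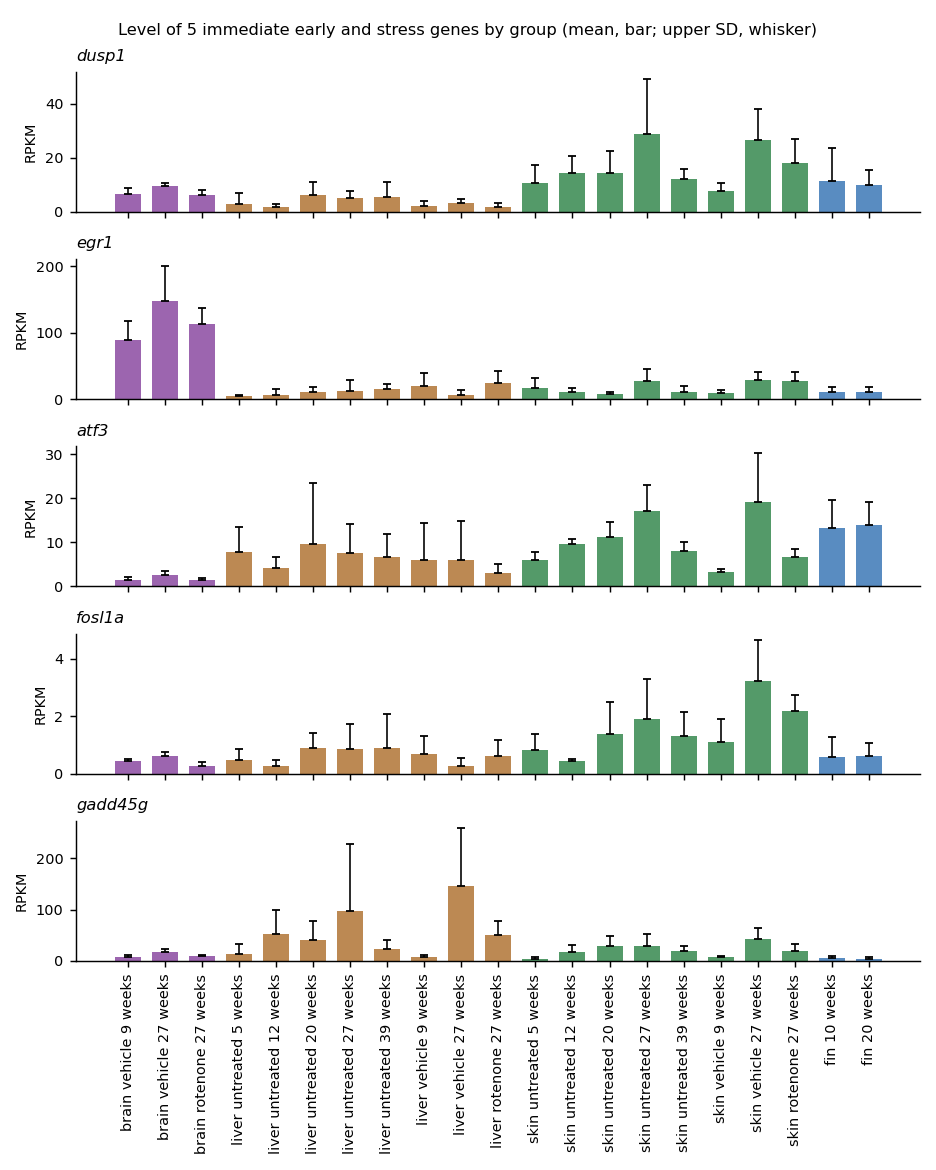
Mean deposited RPKM (bars, vertical axis from 0) of the 5 main loci in each group of fish, with the SD upwards as a whisker. Groups hold 5 fish, or 45 fish for each fin age, with the lifespan groups pooled. The egr1 bars are tallest in brain (89.3 to 147 RPKM), those of gadd45g in 27-week liver, and those of dusp1, atf3 and fosl1a in skin.

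Both GADD45G (2 of 3) loci were read in brain and hardly elsewhere. In 9-week vehicle brains the means were 7.03 ± 1.58 RPKM for Nfu_g_1_018296 and 8.58 ± 1.82 for Nfu_g_1_018341 (SD, n = 5), and no group of liver, skin or fin averaged above 0.056. Brains held up to 260 reads of Nfu_g_1_018296 and 165 to 480 of Nfu_g_1_018341. Of 40 livers, 35 had no read of Nfu_g_1_018296 and 28 none of Nfu_g_1_018341. The loci share a symbol, and their counts moved together over the 15 brains (r = 0.978 of the deviation from the group means). How the counting treated reads that map to more than 1 locus is not given in the sources used here, so the split between this pair is uncertain.

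The tissue differences were tested in the 9-week vehicle fish, in a model of all 45 libraries of that experiment. Of 7 loci tested, 5 were called between brain and liver, 6 between brain and skin and 3 between skin and liver. Over all 21640 loci tested, 74.8, 70.2 and 59.6 percent were called in the same order, so most genes were called. The 7 include the GADD45G (2 of 3) pair, which passed the low count filter only through brain libraries. Calls of this pair between brain and another tissue were therefore largely fixed by the filter. Its few reads in skin and liver left little to test between those tissues. For this reason the members' counts are not read against the background. The tissue differences depend on how libraries of different tissues are scaled. With library totals alone, a setting chosen after the data were seen, in place of edgeR's TMM factors, the median of all loci moved by 1.501 between brain and liver, 0.71 between brain and skin and 0.78 between skin and liver. Both scalings are therefore given, with TMM first.

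For egr1, brain exceeded skin by 2.63 ± 0.65 (edgeR adjusted p = 0.000511) and by 3.35 with totals (7.95e-05). Against liver the brain difference was 0.75 ± 0.62 (edgeR adjusted p = 0.273), and 2.18 with totals (0.00395). Per library, egr1 in 9-week livers ran from 5.58 CPM in MC2 to 58.7 in MC1 and 65.4 in MC4, so these livers fell into a low and a high set. The skin value of egr1 was below that of liver by TMM (-1.88 ± 0.64, edgeR adjusted p = 0.0104) but was not called with totals (-1.16, 0.127) or without liver MC4 (-1.38, 0.065).

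Of the other factors, fosl1a was lower in brain than in skin under both scalings (-2.03 ± 0.51, edgeR adjusted p = 0.000588, and -1.36, 0.0278 with totals). Against liver it was called by TMM only (-2.13 ± 0.52, edgeR adjusted p = 0.000331, and -0.70, 0.239 with totals). For atf3, brain lay below liver under both (-3.37 ± 0.63, edgeR adjusted p = 8.56e-06, and -2.01, 0.00511 with totals) and below skin by TMM only (-1.85 ± 0.60, 0.00623, and -1.13, 0.109 with totals). Liver MC1 carried much of the liver value of atf3: without it the brain difference was -2.14 (edgeR adjusted p = 0.000532). The skin minus liver difference of atf3 was -1.53 ± 0.58 (edgeR adjusted p = 0.023), but -0.88 (0.221) with totals, -0.30 (0.646) without liver MC1, -1.40 (0.0551) without skin MC2 and -1.01 (0.118) with the fish as a block, since the same fish gave both tissues.

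For the phosphatase dusp1, skin was above liver under both scalings, by 1.03 ± 0.41 (edgeR adjusted p = 0.0282) and by 1.75 with totals (0.00105). Brain was below skin by TMM only (-0.98 ± 0.40, edgeR adjusted p = 0.0292, and -0.28, 0.581 with totals), and above liver with totals only (0.04 by TMM, and 1.48, 0.00341 with totals). Each dusp1 call by TMM missed the threshold without any of 5 of 10 libraries: livers MC2, MC4, MC5 or skins MC3, MC5 for the former (0.85 to 0.93, adjusted p 0.0623 to 0.0862), and brains MC1, MC4, MC5 or skins MC3, MC5 for the latter (-0.96 to -0.81, adjusted p 0.0518 to 0.088). The brain value of gadd45g lay below that of liver by TMM at -1.26 ± 0.58 (edgeR adjusted p = 0.0493), but the sign turned with totals (0.31, 0.603), and the call was lost without 7 of 10 libraries (-1.28 to -0.90, adjusted p 0.0677 to 0.175). Reads of the GADD45G (2 of 3) loci in the 9-week brains, 956 and 1509, stood against 0 in the 5 livers, which makes brain at least 343-fold and at least 541-fold higher by library totals, with a floor of 3 counts over the group. Against 3 reads in skin, the ratios were 386 (95 percent counting interval 132 to 1880) for Nfu_g_1_018296 and 610 (208 to 2960) for Nfu_g_1_018341, intervals that cover counting error only.

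Fish of the same group differed from each other more in these genes than in most. The SD of log2 CPM was taken within each group, and its median over groups is given. In livers this was 1.63 for egr1, 1.60 for gadd45g, 1.3 for atf3, 1.07 for dusp1 and 0.79 for fosl1a, against a median of 0.50 over all loci. These lie at the 84.4 to 98.6 percentile of loci. With the prior count of 2 used for log2 CPM elsewhere, the liver medians were 1.46, 1.71, 1.42, 1.04 and 1.08 in the same order. The order of egr1 and gadd45g thus depends on the form of log2 CPM. In skin, gadd45g (0.95), egr1 (0.80), fosl1a (0.76) and dusp1 (0.69) lay at the 94.1 to 98.3 percentile against a median of 0.34, and atf3 (0.40) at the 64.1 percentile. Brain spreads were smaller, from 0.29 for fosl1a to 0.53 for dusp1, against a median of 0.20. In 27-week untreated liver egr1 ranged 25.3-fold between fish, from 1.86 CPM in JM69 to 47.1 in JM61.

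High values of several members fell in livers with high macrophage (9 loci, summed), neutrophil or skin markers. Of 8 liver groups, the liver highest in macrophage markers was also the highest of its group for egr1 in 5, for fosl1a in 4, for atf3 in 4, for dusp1 in 3 and for gadd45g in 1. The liver highest in neutrophil markers (7 loci) was the highest for dusp1 in 5 groups, for atf3, fosl1a and egr1 in 4 each and for gadd45g in 0. In most liver groups the same fish led the macrophage and the neutrophil list, so these counts are not separate. The liver highest in skin markers was the highest for dusp1 in 4, for gadd45g in 4, for fosl1a in 3 and for atf3 and egr1 in 2 each. For the brain, erythrocyte, germ cell, liver and muscle lists the counts were 0 to 3, with gadd45g at 3 for erythrocyte and for germ cell markers. The same match was made in skin and brain. Over 8 skin groups the macrophage counts were 4 for atf3, 2 each for gadd45g and egr1, 1 for dusp1 and 0 for fosl1a. Neutrophil counts in skin were 3 each for atf3 and gadd45g, 1 each for fosl1a and egr1 and 0 for dusp1. The highest skin count was 5, for atf3 with brain markers. In brain the highest was 3 of 3 groups, for dusp1 with muscle markers. With 5 fish per group, chance alone gives a match in 1 of 5 groups, and no count was tested against it. Liver MC1 (9-week vehicle) held 1380 CPM of macrophage markers against 73.9 to 296 in the other 4, MC9 (27-week vehicle) 1080 against 380 to 630, and JM61 (27-week untreated) 2360 against 214 to 728. Their part in the liver values was not tested.

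In untreated skin, 4 of 5 loci were called over the 5 ages taken jointly: atf3 (edgeR adjusted p = 0.0014), gadd45g (0.0106), fosl1a (0.0134) and egr1 (0.0495), with dusp1 at 0.12. This stands against 66.5 percent of all 18925 loci tested, as skin changed widely with age. From 5 to 39 weeks, 2 of 5 loci were called against 54.5 percent of all loci, with a median of 0.76 over the 5 and of -0.03 over all loci. From 5 to 12 weeks 1 of 5 was called against 31.2 percent, from 12 to 39 weeks 1 of 5 against 49.4 percent, and from 27 to 39 weeks 1 of 5 against 37.8 percent.

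The gadd45g level in 5-week skins was 4.33, 4.38, 5.76, 9.23 and 18.2 CPM, and at 39 weeks 19.6, 23.0, 56.3, 64.6 and 76.7 CPM. Every 39-week skin was above every 5-week skin, in a comparison where 54.5 percent of all loci were called. The increase was 2.52 ± 0.70 on the log2 scale (edgeR adjusted p = 0.00411), and leaving out any 1 of the 10 skins kept the call. Much of it was present by 12 weeks, when values were 10.2, 15.2, 23.3, 29.8 and 79.7 CPM (1.92 ± 0.69 over 5 weeks, edgeR adjusted p = 0.0364). The 12-week call missed the threshold without any of JM100, JM102, JM94, JM95, JM104 or JM109 (1.23 to 1.95, adjusted p 0.0507 to 0.174), the lowest estimate being without JM104, the fish at 79.7.

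For atf3, the 5-week skins lay at 5.14, 5.67, 6.43, 9.08 and 12.4 CPM, and 12-week skins between 10.8 and 13.4 (0.63 ± 0.29, edgeR adjusted p = 0.1; without JM103 0.86, adjusted p = 0.0307, and 0.72, adjusted p = 0.042 with library totals alone). At 27 weeks the values were 11.6, 17.1, 23.0, 27.9 and 32.9 CPM, and at 39 weeks 9.47, 9.80, 12.7, 13.98 and 19.7. So the middle of the 39-week skins lay above that of 5 weeks and below that of 27 weeks, with overlap in both cases. The differences were 0.76 ± 0.29 against 5 weeks (edgeR adjusted p = 0.0302) and -0.78 ± 0.29 against 27 weeks (adjusted p = 0.0372). Both rest on few fish: the former missed the threshold with library totals alone (0.45, adjusted p = 0.159) and without JM100, JM102, JM95, JM15 or JM24 (0.57 to 0.74, adjusted p 0.0507 to 0.103), while the latter missed it without JM55, JM72, JM74, JM1, JM13, JM15 or JM18 (-0.80 to -0.60, adjusted p 0.0527 to 0.123).

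The AP-1 gene fosl1a was lowest and tightest at 12 weeks, at 0.770, 0.826, 1.03, 1.22 and 1.24 CPM. At 39 weeks skins held 1.45, 2.96, 3.82, 3.99 and 9.13 CPM, all above the 12-week skins, and the increase of 2.06 ± 0.60 (edgeR adjusted p = 0.00643) held without any 1 fish. The share of all loci that separate between these ages is not given here. Against 5 weeks, where JM100 stood at 4.27 and the rest at 0.5261 to 2.40 CPM, the value was 1.07 ± 0.57 (adjusted p = 0.116; without JM100 1.55, adjusted p = 0.0361). Macrophage markers in skin were 314 to 635 CPM at 5 weeks and 691 to 983 at 39 weeks, and neutrophil markers (7 loci) 312 to 498 and 574 to 1210. Erythrocyte markers had medians of 2630 and 629 CPM in the same order. Skin markers lay at 17700 to 27500 and 25200 to 41500 CPM, and muscle markers at 27000 to 39700 and 23800 to 71600. Their part in these differences was not tested.

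The zinc finger gene egr1 and dusp1 were called in none of the 4 pairs of ages tested in skin. In 5-week skins egr1 was 9.62 to 23.2 CPM in 4 fish and 60.6 in JM100, and at 39 weeks 6.79 to 40.2. The difference of -0.33 ± 0.51 turned to 0.30 without JM100. The joint call of egr1 over ages was lost without any of 15 of the 25 skins: JM103, JM94, JM104, JM110, JM112, JM116, JM79, JM84, JM87, JM88, JM62, JM83, JM15, JM18 or JM24 (adjusted p 0.0543 to 0.168). At 27 weeks JM83 and JM62 stood at 64.0 and 70.11 CPM and the other 3 at 17.9 to 23.98, and the 39-week value against them was -0.96 ± 0.51 (edgeR adjusted p = 0.143; without JM13 -1.38, adjusted p = 0.0469). For dusp1, 27-week skins ran from 44.7 CPM to 229 in JM74, the skin that was also highest of its age for atf3 and fosl1a (10.95 CPM). All 5 estimates between 27 and 39 weeks were negative, with a median of -0.78 against 0.02 over all loci.

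**Figure D2:**
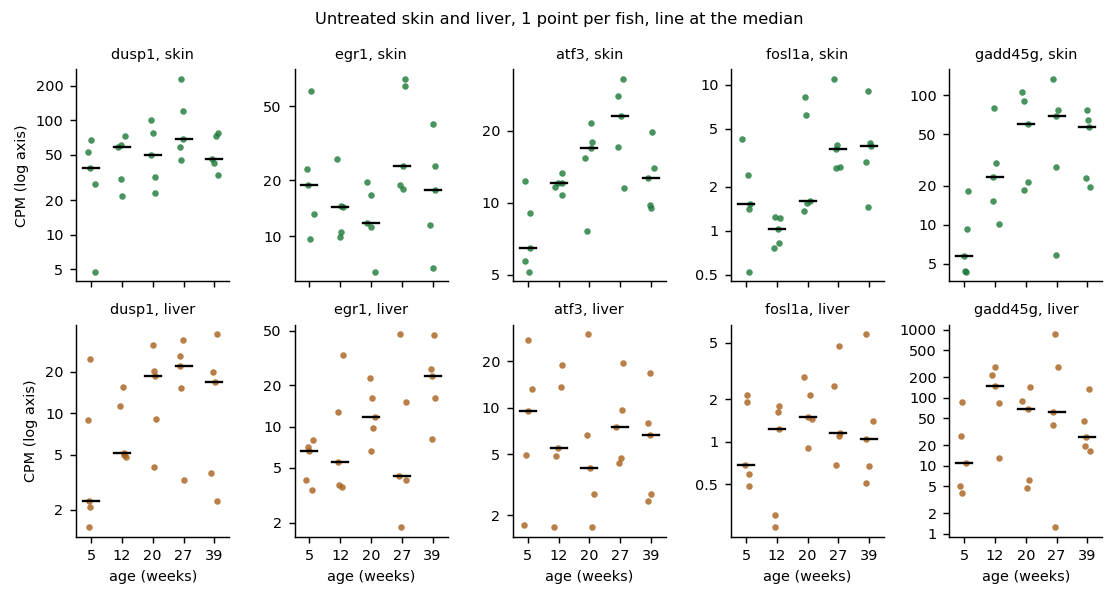
CPM on a log axis of the 5 main loci against age in weeks in untreated skin and liver, with 1 point per fish (5 per age) and a line at the median. In skin, gadd45g lies at 4.33 to 18.2 CPM at 5 weeks and at 19.6 to 76.7 at 39 weeks, while points of 1 age spread widely in liver.

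In untreated liver no member was called in the 4 pairs of ages tested. By edgeR, 0 of 5 loci were called from 5 to 39 weeks against 12.0 percent of all 17618 loci, and 0 of 5 from 5 to 12 weeks against 13.5 percent. At an unadjusted p under 0.05 there was 1 of 5 in each, and DESeq2 called 1 and 0. From 12 to 39 and from 27 to 39 weeks no locus was called over the whole table (0.0 percent), with 3026 and 1115 of 17618 loci and none of the 5 at an unadjusted p under 0.05. DESeq2 called 508 and 20 loci there, again with 0 of the 5. Over all ages jointly edgeR and DESeq2 called 0 of 5 (none at an unadjusted p under 0.05), against 12.9 percent by edgeR.

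The closest was egr1, which lay at 3.43, 4.11, 6.66, 7.09 and 7.99 CPM in 5-week livers and at 8.06, 16.3, 23.5, 26.1 and 46.5 CPM at 39 weeks. These groups do not overlap, though the share of all loci that separate between these ages is not given here. The difference was 2.04 ± 0.73 with an adjusted p of 0.0675 by edgeR, and 2.02 with an adjusted p of 0.0232 by DESeq2. In gadd45g, 12-week livers ran from 12.9 to 289 CPM against 4.00 to 86.9 at 5 weeks (2.49 ± 1.2, edgeR adjusted p = 0.172). At 27 weeks it spanned 1.26 CPM in JM83 to 868 in JM69. Values of atf3 were 1.68 to 30.1 CPM over all untreated livers, with JM75 (20 weeks), JM103 (5 weeks) and JM61 (27 weeks) at 30.1, 27.7 and 19.5.

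The change with age was set against itself between skin and liver by an interaction term. For 39 against 5 weeks 0 of 5 main loci were called by edgeR, against 20.7 percent of all 19861 loci, with 1 at an unadjusted p under 0.05 and 1 called by DESeq2. That locus was egr1, whose change in skin minus that in liver was -2.32 ± 0.90 (edgeR adjusted p = 0.0582, DESeq2 0.0325), and it was called by edgeR without liver JM15 (-2.49, adjusted p = 0.0462) or skin JM13 (-2.74, adjusted p = 0.0324). For atf3 the difference was 1.43 ± 0.85 (adjusted p = 0.24), and 2.41 (adjusted p = 0.0461) with the fish as a block, as 12 fish gave both tissues. For 39 against 12 weeks edgeR and DESeq2 called 0 of 5 loci, none at an unadjusted p under 0.05, against 21.5 percent by edgeR.

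Vehicle fish of 27 weeks were set against vehicle fish of 9 weeks. In skin, all 5 main loci were higher in estimate and 3 of 5 were called, against 10.5 percent of all 19285 loci. The median of the 5 was 1.52 against 0.05 over all loci. Skin atf3 lay at 3.23, 3.81, 4.75, 6.16 and 6.72 CPM at 9 weeks and at 12.1, 17.6, 21.1, 22.3 and 48.1 at 27 weeks. Every 27-week skin was higher, the increase was 2.29 ± 0.35 (edgeR adjusted p = 0.00643), and it held without any 1 fish. How many of all loci separate in this way is not given here.

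Skin dusp1 and gadd45g also separated by age. The 9-week skins held 16.8, 29.7, 29.8, 40.9 and 45.7 CPM of dusp1 and the 27-week skins 50.1, 53.3, 104.1, 111.9 and 146 (1.52 ± 0.38, edgeR adjusted p = 0.0236). For gadd45g the values were 9.68, 13.7, 16.8, 22.7 and 22.8 CPM at 9 weeks and 32.1, 44.3, 102.4, 104.2 and 125 at 27 weeks (2.25 ± 0.56, adjusted p = 0.0232). In neither gene did the ages overlap, though the share of all loci without overlap in these skins is not given here. The dusp1 call missed the threshold without MC2, MC4, MC6 or MC8 (1.29 to 1.48, adjusted p 0.0504 to 0.0589) and that of gadd45g without MC3, MC4, MC5 or MC6 (2.05 to 2.39, adjusted p 0.0526 to 0.0607).

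The other 2 transcription factors overlapped in skin. For egr1, 9-week skins held 6.53, 8.49, 11.5, 22.01 and 26.5 CPM and 27-week skins 25.9, 26.3, 28.8, 53.8 and 66.9 (1.43 ± 0.46, edgeR adjusted p = 0.0583). For fosl1a the values were 1.26, 1.88, 2.73, 2.90 and 6.97 against 3.12, 6.61, 7.56, 9.66 and 13.2 CPM (1.35 ± 0.43, edgeR adjusted p = 0.0583). DESeq2 called both, and thus all 5, as did edgeR with library totals alone. By edgeR, fosl1a was called without MC5 (1.88, adjusted p = 0.0251) or MC9 (1.55, adjusted p = 0.0474). Macrophage markers were 382 to 550 CPM in 9-week and 466 to 1100 in 27-week vehicle skins, and muscle markers (12 loci) 8370 to 21300 and 7060 to 11600. Their part in the skin differences was not tested. The 27-week vehicle skin MC7 held 528 CPM of germ cell markers (7 loci) against a group median of 8.73, and the rotenone skin MR30 1040 against 2.61. Without both skins the values by age were 2.50 for atf3, 1.505 for dusp1, 2.18 for gadd45g, 1.397 for fosl1a and 1.59 for egr1, and egr1 was then called as well (edgeR adjusted p = 0.0361).

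In brain, 1 of 7 loci was called from 9 to 27 weeks, against 2.09 percent of all 20132 loci, and 6 of 7 estimates were positive with a median of 0.57 against 0.03. Without brain MC10 the estimate of Nfu_g_1_018341 went from 0.05 to -0.32 and that of Nfu_g_1_018296 to -0.50, neither called. The called locus was gadd45g, at 12.6, 12.7, 16.7, 18.5 and 26.1 CPM in 9-week and 21.8, 32.7, 39.4, 47.4 and 48.4 CPM in 27-week brains (1.13 ± 0.27, edgeR adjusted p = 0.0467). Only MC9 of the older fish fell within the younger range. The call missed the threshold without MC1, MC3, MC4, MC5, MC6, MC7 or MC8 (1.04 to 1.18, adjusted p 0.0536 to 0.131).

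Brain egr1 in 9-week fish was 96.3, 106.4, 130, 145 and 204 CPM. In 27-week vehicle fish it was 238, 252, 254 and 294 CPM in 4 and 93.6 in MC10, which lay below every young brain. The difference was 0.73 ± 0.27 (edgeR adjusted p = 0.17), and 0.94 with an adjusted p of 0.00732 without MC10. That brain also held 2140 CPM of erythrocyte markers (9 loci), against 146 to 401 in the other 27-week vehicle brains; its part was not tested. Not called were atf3 (0.88 ± 0.29, adjusted p = 0.125), dusp1 (0.57 ± 0.27, 0.296), fosl1a (0.53 ± 0.29, 0.378) and the GADD45G (2 of 3) loci (-0.20 ± 0.26 for Nfu_g_1_018296 and 0.05 ± 0.28 for Nfu_g_1_018341).

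In liver, gadd45g was again the called locus, 1 of 5 against 12.4 percent of all 16750 loci. The 9-week livers held 3.51, 5.28, 19.5, 20.9 and 29.2 CPM and the 27-week livers 78.8, 113, 201, 368 and 653 CPM. No old liver came near a young one, though the share of all loci without overlap in these livers is not given here. The increase of 4.17 ± 0.81 (edgeR adjusted p = 0.0101) was the largest of any member in a comparison of ages. It held without any 1 fish (3.60 to 4.52), while without both MC7 and MC8, whose livers held 339 and 274 CPM of muscle markers against 25.4 to 35.3 in the other 3 of their group, it was 3.78 with an adjusted p of 0.0596. The other 4 loci were not called. Liver fosl1a was 0.889 to 4.49 CPM at 9 weeks and 0.141 to 1.55 at 27 weeks (-1.66 ± 0.68, edgeR adjusted p = 0.121). Without liver MC9, the highest of the older group, it was -2.39 (adjusted p = 0.0306). Liver egr1 was -1.83 ± 0.90 (adjusted p = 0.194).

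Rotenone fish of 27 weeks were compared with vehicle fish of the same age. In brain all 7 loci were lower in estimate, with a median of -0.65 against -0.03 over all loci, and 2 of 7 were called, against 8.69 percent of all 20132 loci. Without vehicle brain MC10 the 2 GADD45G (2 of 3) loci turned to 0.11 (Nfu_g_1_018296) and 0.02 (Nfu_g_1_018341), neither called. Brain fosl1a was 1.08, 1.29, 1.64, 1.98 and 2.20 CPM under vehicle and 0.407, 0.574, 0.657, 0.709 and 1.24 CPM under rotenone. The MR30 brain, at 1.24, was the single treated one within the vehicle range. It fell by 1.18 ± 0.30 on the log2 scale (edgeR adjusted p = 0.0244), on 12 to 48 reads per brain. The call missed the threshold without MC9, MR26, MR27, MR28 or MR29 (-1.18 to -1.03, adjusted p 0.0553 to 0.0687).

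Brain gadd45g was 21.8 to 48.4 CPM under vehicle and 10.0, 17.1, 20.5, 22.3 and 25.7 CPM under rotenone (-0.99 ± 0.27, edgeR adjusted p = 0.0377). Of these, 3 rotenone brains lay below all vehicle brains. The call missed the threshold without MC6, MC7, MC8, MR26, MR27, MR28 or MR29 (-1.04 to -0.82, adjusted p 0.0557 to 0.0925). Values of dusp1 were 31.7, 33.99, 34.2, 36.4 and 42.95 CPM under vehicle and 11.6, 20.1, 26.1, 27.7 and 29.2 under rotenone. These groups did not overlap, yet the difference of -0.65 ± 0.27 was not called (edgeR adjusted p = 0.148). The share of all loci without overlap in these brains is not given here.

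Brain atf3 was 2.58 to 5.53 CPM under vehicle and 1.42 to 2.92 under rotenone (-0.82 ± 0.29, edgeR adjusted p = 0.0919, DESeq2 0.0491). For egr1 the rotenone brains held 122, 162, 170, 199 and 213 CPM, below 4 of the 5 vehicle brains and above MC10 (-0.39 ± 0.27, edgeR adjusted p = 0.41). Without MC10 it was -0.60 with an adjusted p of 0.0311. The GADD45G (2 of 3) loci were at -0.19 ± 0.26 and -0.35 ± 0.28, with the signs turned without MC10, and neither was called.

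The 27-week vehicle brains enter both brain comparisons, so a value that is high in those 5 fish is seen as an increase with age and as a decrease with rotenone. Side by side, gadd45g was 1.13 and -0.99, atf3 0.88 and -0.82, egr1 0.73 and -0.39, dusp1 0.57 and -0.65, and fosl1a 0.53 and -1.18. Macrophage markers in brain were 28.8 to 53 CPM at 9 weeks, 45.0 to 126 in 27-week vehicle and 47.4 to 71.8 in rotenone fish, and neutrophil markers 31.6 to 35.6, 36.6 to 99.2 and 29.5 to 73.6 CPM in the same order. Their part in these differences was not tested.

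In skin 1 of 5 loci was called with rotenone, against 12.3 percent of all 19285 loci. The vehicle skins here are also the older group of the comparison by age above. A value high in them is thus seen as an increase with age and as a decrease with rotenone. The stress factor atf3 was 6.11, 7.36, 9.10, 10.1 and 12.9 CPM in rotenone skins, against 12.1 to 48.1 under vehicle. A single rotenone skin, MR29, lay within the vehicle range, and the decrease of -1.41 ± 0.34 (edgeR adjusted p = 0.0152) held without any 1 fish (-1.58 to -1.01) and without both MC7 and MR30 (-1.51, adjusted p = 0.00861). Skin gadd45g was 4.597 CPM in MR27 and 32.9 to 74.5 in the other 4 rotenone fish (-1.02 ± 0.54, adjusted p = 0.243). The estimates of fosl1a (-0.52 ± 0.42), dusp1 (-0.45 ± 0.37) and egr1 (0.07 ± 0.45) were not called. Macrophage markers were 391 to 674 CPM in these skins against 466 to 1100 under vehicle, and muscle markers 10300 to 26900 against 7060 to 11600. Their part in the atf3 difference was not tested.

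In liver edgeR called 0 of 5 loci with rotenone, against 26 percent of all 16750 loci, with 1 locus at an unadjusted p under 0.05 and 1 called by DESeq2. That locus was egr1: under vehicle it was 1.90, 2.16, 3.97, 16.4 and 18.8 CPM, and under rotenone 5.12 and 6.30 CPM in MR30 and MR26 but 47.6, 50.0 and 62.9 in MR29, MR28 and MR27. The difference was 1.99 ± 0.90 (edgeR adjusted p = 0.112, DESeq2 0.0399). The same 3 livers were the highest of the treated group for fosl1a, at 1.68 to 3.102 CPM against 0.284 and 0.764 (1.36 ± 0.67, edgeR adjusted p = 0.142). Without MC9, the highest vehicle liver for fosl1a, the value was 2.08 (adjusted p = 0.0349). Liver gadd45g was 10.4 CPM in MR27 and 79.9 to 162 in the rest, against 78.8 to 653 under vehicle (-1.46 ± 0.73, adjusted p = 0.144). Macrophage markers were 132 to 336 CPM under rotenone and 380 to 1080 under vehicle, and their part was not tested. These vehicle livers are also the older group of the comparison by age above.

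The rotenone effects were compared between tissues by interaction terms over all 45 libraries. Between brain and liver 1 of 7 loci was called, against 9.76 percent of all 21640 loci. This was fosl1a, whose effect in brain minus that in liver was -2.60 ± 0.73 (edgeR adjusted p = 0.0187), with brain lower and liver higher in estimate. It was -2.15 (adjusted p = 0.0524) without liver MR29, -2.39 (0.0642) with library totals alone and -3.24 (adjusted p = 0.00307) without liver MC9. For egr1 the difference was -2.43 ± 0.88 (edgeR adjusted p = 0.0719, DESeq2 0.0363), and edgeR called it without liver MC7, MC9, MR26 or MR30 (adjusted p 0.0356 to 0.0482). The 7 loci include the GADD45G (2 of 3) pair, which had at most 2 reads of either locus in a liver. Little could therefore be tested for this pair.

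Between brain and skin edgeR called 0 of 7 loci against 0.333 percent of all loci, with 1 at an unadjusted p under 0.05 and 0 by DESeq2. So neither the brain calls of fosl1a and gadd45g nor the skin call of atf3 were shown to differ between those tissues. The 7 loci include the GADD45G (2 of 3) pair, which passed the filter only through brain libraries. In skin its loci had at most 5 (Nfu_g_1_018296) and 9 reads (Nfu_g_1_018341) per library, so little could be tested for this pair. Between skin and liver edgeR called 0 of 7 against 3.22 percent, with 3 at an unadjusted p under 0.05 and 0 by DESeq2. These 7 include the GADD45G (2 of 3) pair, which was hardly read in either tissue. With DESeq2's size factors in edgeR, Nfu_g_1_018341 was at 5.10 ± 1.73 (edgeR adjusted p = 0.102). That value rests on at most 9 reads per skin and 2 per liver. In the main test of skin against liver, fosl1a was at -1.98 ± 0.71 (edgeR adjusted p = 0.114; -2.61 and 0.0217 without liver MC9) and egr1 at -2.03 ± 0.88 (adjusted p = 0.222).

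**Figure D3:**
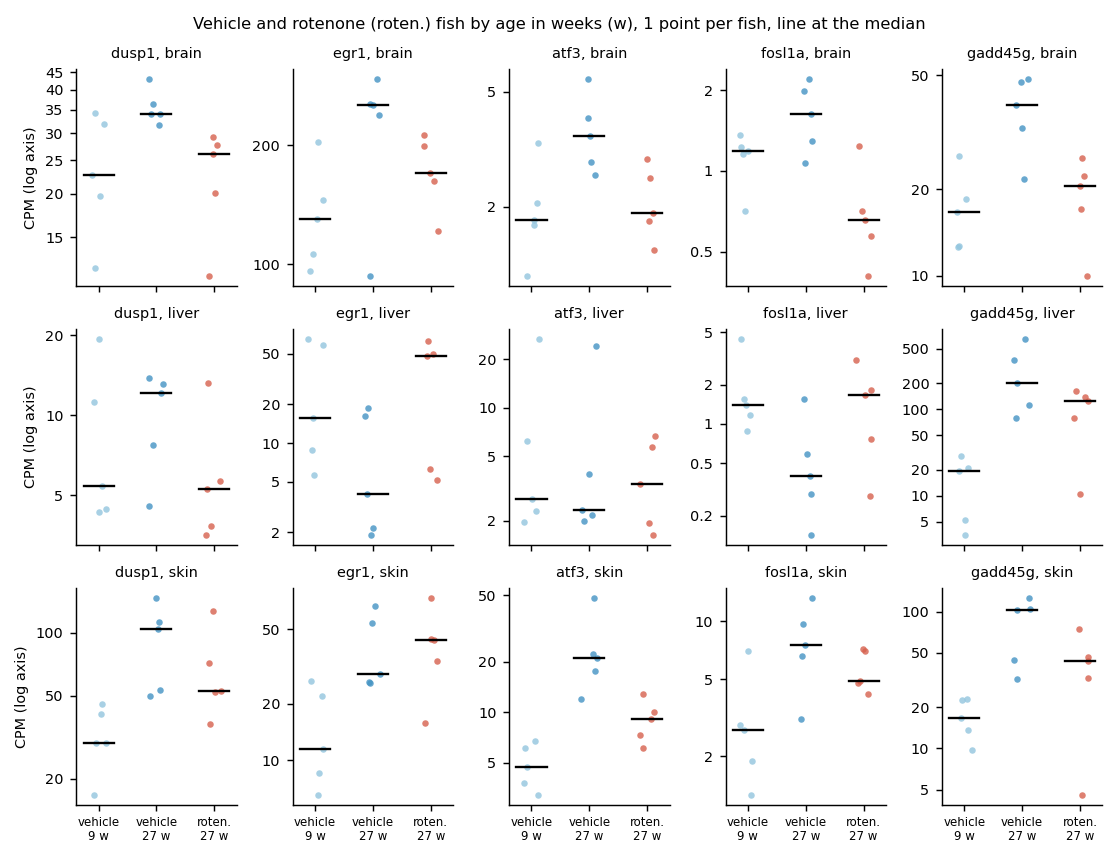
CPM on a log axis of the 5 main loci in brain, liver and skin of 9-week vehicle, 27-week vehicle and 27-week rotenone fish, with 1 point per fish (5 per group) and a line at the median. Skin atf3 stands at 12.1 to 48.1 CPM in 27-week vehicle fish, above all 9-week fish and above 4 of the 5 rotenone fish.

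**Figure D4:**
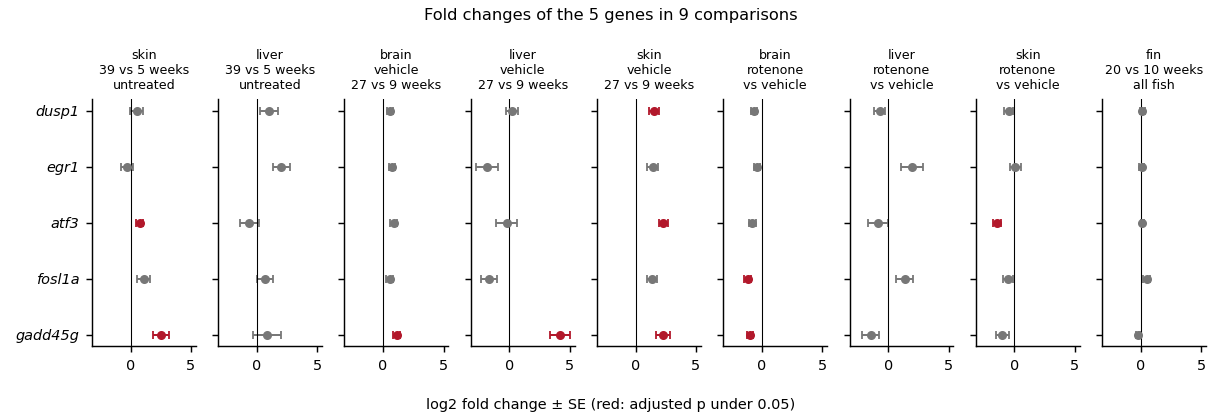
Log2 fold change (horizontal axis, point) with its SE (bar) of the 5 main loci in 9 comparisons of age or rotenone, where red marks an adjusted p under 0.05 by edgeR. The longest distance from 0 is that of gadd45g in liver from 9 to 27 weeks of vehicle (4.17), and fin points lie close to 0.

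Other genes of these pathways were counted from 5 lists of symbols. The AP-1 and immediate early list (38 loci) holds fos, jun, nr4a, ier and klf genes. From 9 to 27 weeks under vehicle, 7 of its 33 skin loci were called higher and 0 lower, with a median of 0.35 against 0.05 over all loci, of which 10.5 percent were called in either direction. Among them were junba (Jun family, 0.55 ± 0.13), ZFP36, which encodes a protein that destabilises AU-rich mRNAs (1.1 ± 0.25), jun (0.80 ± 0.21) and the antiproliferative btg1 (0.79 ± 0.21). With rotenone 0 were higher and 4 lower in skin: maff (-0.59 ± 0.15), the AP-1 gene fosl2 (-0.90 ± 0.23), btg1 (-0.77 ± 0.21) and jun (-0.70 ± 0.20), with a median of -0.33 against 0.07 and 12.3 percent of all loci called. The 27-week vehicle skins enter both comparisons, so a gene high in those fish is seen as higher with age and as lower with rotenone.

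In brain, 1 of 36 loci of that list was called from 9 to 27 weeks, the growth factor-like ctgfa (0.85 ± 0.19), with a median of 0.29 against 0.03 and 2.09 percent of all loci called. Rotenone brains had 0 higher and 3 lower: ctgfa (-1.07 ± 0.19), IER2 (-1.05 ± 0.28) and jun (-0.64 ± 0.18), with a median of -0.28 against -0.03 and 8.69 percent of all loci called. In liver, 1 was higher and 3 lower of 30 with age under vehicle, with cyr61 at 1.54 ± 0.35, fosb at -2.41 ± 0.66 and nr4a3 at -2.51 ± 0.76, where 12.4 percent of all loci were called. With rotenone 1 was higher and 4 lower, among them the Krüppel-like factor klf11a (-2.21 ± 0.44) and mycb (1.24 ± 0.38), where 26 percent of all loci were called. In brain and liver too, the 27-week vehicle fish enter both comparisons.

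In untreated skin from 5 to 39 weeks, 13 loci of the immediate early list rose and 6 fell of 33 tested, with a median of 0.65 against -0.03. Of all loci 54.5 percent were called in that skin comparison, so the counts of the lists there are read against a high share. The junba locus Nfu_g_1_015820 (2.10 ± 0.19) and myca (2.05 ± 0.28) rose, and srf, which encodes the serum response factor that drives many immediate early promoters, fell by 1.15 ± 0.17. In untreated liver 6 rose and 1 fell of 31, with junba (Nfu_g_1_019346, 2.73 ± 0.65), fos (2.43 ± 0.68) and myca (2.87 ± 0.78) higher and jun (Nfu_g_1_020727, -2.05 ± 0.47) lower. The median was 0.46 against 0.07, and 12.0 percent of all loci were called.

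Kinase phosphatases and feedback inhibitors (23 loci) were counted next. Untreated skin had 4 higher and 9 lower of 19 from 5 to 39 weeks, with the Ras pathway inhibitors spred1 (-2.97 ± 0.34) and spred2b (-2.89 ± 0.32) among the latter and a median of -0.13 against -0.03, where 54.5 percent of all loci were called. In untreated liver 3 were higher and 3 lower of 18, including the ERK phosphatase gene dusp4 (2.57 ± 0.62), spry4 (2.18 ± 0.40) and dusp16 (-2.20 ± 0.49). There, 12.0 percent of all loci were called. At most 1 was called with rotenone in any tissue: dusp16 in brain (-0.51 ± 0.13), spry2 in liver and dusp7 in skin, all lower. Of all loci, 8.69 percent were called with rotenone in brain, 26 in liver and 12.3 in skin.

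The integrated stress response list (27 loci) showed the chaperone gene hspa5 in both directions. Its 2 loci fell from 9 to 27 weeks under vehicle in liver (-3.28 ± 0.58 and -2.71 ± 0.55) and skin (-1.39 ± 0.25 and -1.17 ± 0.23), and were higher with rotenone in liver (2.79 ± 0.57 and 2.64 ± 0.55) and skin (1.76 ± 0.25 and 1.37 ± 0.23). The 27-week vehicle fish enter both comparisons. The list counts with rotenone were 4 higher and 7 lower of 23 in liver and 3 and 4 of 23 in skin, with medians of -0.34 and -0.02 against -0.08 and 0.07 and with 26 and 12.3 percent of all loci called. In brain, ddit3, which encodes the stress factor CHOP, fell by 0.42 ± 0.11, as the single called locus of 25. With rotenone, 8.69 percent of all loci were called in brain.

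In the growth arrest list (19 loci), the cell cycle inhibitor gene cdkn1a was lower with rotenone in liver (-2.42 ± 0.43) and skin (-1.93 ± 0.50), as was ccng2 (-2.60 ± 0.66 and -1.74 ± 0.48). In liver 3 were higher and 4 lower of 19, and in skin 1 and 4, where 26 and 12.3 percent of all loci were called. Under vehicle, gadd45ba was higher in 27-week than in 9-week skin (2.34 ± 0.51), 1 of 2 called there, both higher, where 10.5 percent of all loci were called. In untreated skin 9 rose and 1 fell of 19 from 5 to 39 weeks, with a median of 0.82 against -0.03 and 54.5 percent of all loci called, among them fas (2.05 ± 0.27), plk2a (1.85 ± 0.30), mdm2 (1.33 ± 0.16) and ccng1 (1.08 ± 0.14). Of the heat shock and inflammation list (23 loci), 13 rose and 1 fell of 22 in those skins, against the same 54.5 percent, with a median of 1.03 against -0.03, including il1b (2.99 ± 0.57) and the haem oxygenase gene hmox1 (2.04 ± 0.38).

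Fin clips gave 45 libraries at each age, with the fish as a block. From 10 to 20 weeks edgeR and DESeq2 called 0 of 5 loci, with none at an unadjusted p under 0.05, against 24 percent of all 18828 loci by edgeR. Lowest, median and highest CPM were 8.75, 23.2 and 208 at 10 weeks and 11.9, 29.7 and 98.1 at 20 weeks for dusp1, and 5.11, 12.3 and 61.03 against 5.26, 13.3 and 73.3 for egr1. For atf3 they were 7.50, 17.1 and 67.8 against 9.94, 16.8 and 45.5, and for gadd45g 3.72, 9.20 and 38.1 against 4.00, 8.47 and 32.5. The ages overlapped almost fully, and estimates lay between -0.21 ± 0.16 for gadd45g and 0.14 ± 0.19 for dusp1 in these 4 genes.

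The fin value furthest from 0 was that of fosl1a, at 0.194, 0.681 and 9.15 CPM (10 weeks) against 0.202, 1.29 and 5.39 CPM (20 weeks), on 5 to 277 reads per fin. The change was 0.51 ± 0.29 (edgeR adjusted p = 0.204). In batch 2 of the titles (15 fish) alone it was 0.99 with an adjusted p of 0.0196, while batch 1 (30 fish) alone gave no call for any member. Within lifespan groups 0 of 5 loci were called in each by both tools, none at an unadjusted p under 0.05, against 6.63 percent of loci in short-lived, 5.87 in middle-lived and 2.7 in long-lived fish.

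No member was called between lifespan groups by either tool. Between long-lived and short-lived fish, 0 of 5 loci were called at 10 weeks, at 20 weeks and in the change between them, and 0.0 percent of the whole table in each, with 630, 674 and 320 loci but none of the 5 at an unadjusted p under 0.05. Middle-lived against short-lived fins gave 0 of 5 at both ages and again 0.0 percent, with 1476 loci at 10 and 470 at 20 weeks at an unadjusted p under 0.05. The former included 1 member, dusp1, at -0.97 ± 0.41 (edgeR adjusted p = 0.61). DESeq2 called no locus in these 5 comparisons.

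Most pairs of members varied together from fish to fish within an age. The permutations pooled both batches, and the share of other locus pairs that would pass in these fins is not given here. Over 45 fins of 10 weeks, log2 CPM of dusp1 and egr1 gave Pearson r = 0.869 and Spearman rho = 0.819 (100000 permutations, p at the smallest value these can give, 1e-05, Benjamini-Hochberg 1.7e-05 over 20 pairs). For dusp1 with fosl1a r was 0.848 (rho 0.789), and for fosl1a with egr1 0.844 (rho 0.752), with the same p. Without the 2 fish farthest from the median of the first gene, the 3 coefficients were 0.835, 0.795 and 0.804. The fish LS10 was the highest for dusp1, atf3, fosl1a and gadd45g.

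All 10 pairs at 10 weeks reached an adjusted permutation p of 1.7e-05, with r of 0.623 or more. The 3 pairs of dusp1, fosl1a and egr1 held in both batches, at 0.880 and 0.862 for dusp1 with egr1, 0.863 and 0.698 for dusp1 with fosl1a and 0.877 and 0.702 for fosl1a with egr1 (batch 1, then batch 2). Pairs with atf3 did not: with egr1 r was 0.817 in batch 1 and -0.134 in batch 2, with dusp1 0.849 and -0.467, with fosl1a 0.794 and -0.169, and with gadd45g 0.823 and -0.268. The pooled r of these 4 pairs therefore rests on batch 1.

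At 20 weeks 9 of 10 pairs had an adjusted permutation p under 0.05. The highest were fosl1a with egr1 (r = 0.726, rho = 0.700; 0.777 and 0.645 by batch) and dusp1 with egr1 (r = 0.649, rho = 0.618; 0.708 and 0.577 by batch). The lowest was fosl1a with gadd45g (r = 0.192, adjusted permutation p = 0.21). A fish kept no rank between its 2 clips that could be seen here: r between 10 and 20 weeks was 0.081 for dusp1, 0.1 for atf3, -0.236 for fosl1a, -0.087 for gadd45g and -0.046 for egr1, with adjusted permutation p of 0.59 to 0.76 over 5 tests. By batch, fosl1a was at -0.370 and 0.412 and atf3 at -0.180 and 0.632.

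**Figure D5:**
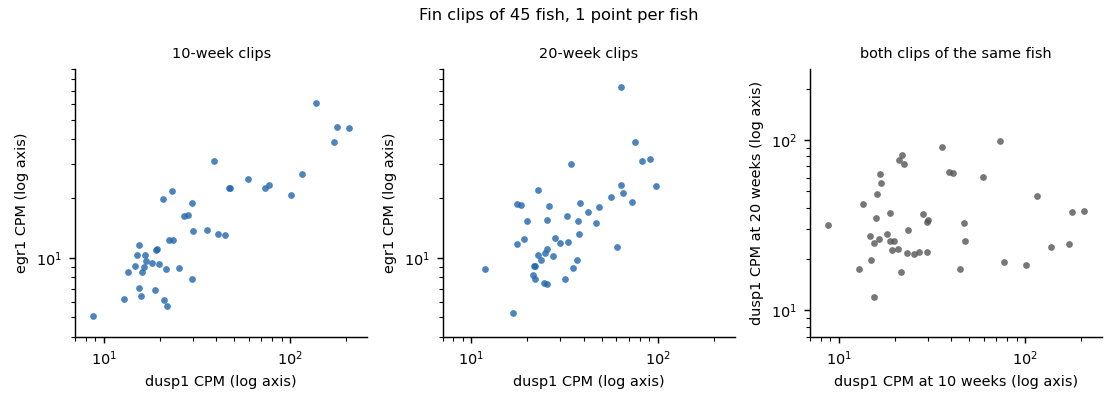
Fin clips of 45 fish, 1 point per fish on log axes: egr1 against dusp1 CPM at 10 weeks, the same at 20 weeks, and dusp1 at 20 against dusp1 at 10 weeks. The first panel shows a narrow rising band (r = 0.869), the second a wider one (r = 0.649), and the third a cloud with no clear slope (r = 0.081).

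Over all 185 libraries, each locus was taken as its deviation from the mean of its group, and the 3 loci most like each member were named out of 15516, as a description with no test. For dusp1 they were IER2 (Nfu_g_1_019499, r = 0.816), ZFP36 (0.792) and fos (0.721), for fosl1a fos (0.695), nr4a1 (0.694) and the IER2 locus Nfu_g_1_007263 (0.671), and for egr1 fos (0.622), junba (0.590) and EGR3 (0.589). All of these are themselves immediate early genes in mammals. The growth arrest gene gadd45g went with its relative gadd45ba (0.869), zfand5a (0.778) and ddit4 (0.736), and atf3 with ddit3 (0.555), the same IER2 locus Nfu_g_1_007263 (0.552) and malt1b (0.549). Between the 5 main loci the highest r was that of dusp1 with fosl1a (0.600) and the lowest that of gadd45g with egr1 (-0.055). These points are not independent, since several libraries came from 1 fish. Libraries of a group also differed in depth, and the part of depth or tissue handling in these r was not tested.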

How the data were processed

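Tests ran on the deposited read counts per locus, and levels between genes, groups or tissues were taken from the authors' RPKM. Per the labels' protocols, RNA was extracted with QIAzol, and 2.5 µg (1.0 µg for fins) went into TruSeq libraries. Per the submitters' processing notes, the authors used CASAVA 1.8.0 and 1.8.2, bcl2fastq 1.8.4, TopHat2 2.0.6 and featureCounts 1.4.3-p1. For the deposited counts, genome build, annotation and strand setting: not given in the sources used here, so reads of overlapping, antisense or near-copy genes may be shared. The count and deposited RPKM tables gave 1 length per locus within 1 percent in 100.0 percent of pairs checked.

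Counts were tested with edgeR 4.0.16 in R 4.3.3 (TMM scaling, filterByExpr, robust quasi-likelihood test), with Benjamini-Hochberg adjustment over all loci tested. A prior count of 2 entered log2 CPM, while edgeR fold changes used its default. CPM are on the TMM scale of each experiment and tissue. Low counts were filtered per fit: 5 member loci passed in liver, skin and fin fits, 7 with brain libraries. Fin ages had the fish as a block and lifespan groups the batch of the titles. The same fish gave several tissues by its label code; the correlation of tissues of 1 fish was 0.095 to 0.415 over 12 untreated fish, -0.119 to 0.345 over 45 tissue pairs of the second experiment, and -0.21 to 0.746 between clips. Alternatives were DESeq2 1.42.0, its size factors in edgeR, library totals alone, no filter, fish or batch terms, and leaving out single libraries. Correlations used 100000 permutations (scipy 1.17.1). Members and lists were chosen with earlier results of these data known. Named beside the members are at most 4 called loci of each list by smallest p, and the 3 loci most like each member. Pipelines were tested on simulated counts.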

Additional observations from a re-analysis of the deposited data

Results flagged for a closer look

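Each group of 5 fish was examined, per member locus, for a fish far from the other 4, and 7 such values were found, where chance gives about 1 in 20, or 5.05 of the combinations examined. The skin of JM74 (untreated, 27 weeks) held 10.95 CPM of fosl1a against 2.69 to 3.87 in the other 4. The brain of MC1 (vehicle, 9 weeks) was low for fosl1a at 0.712 CPM, with the rest at 1.16 to 1.36. The vehicle brain MC10 at 27 weeks was low for egr1 at 93.6 CPM against 238 to 294. The rotenone liver MR27 was low for gadd45g at 10.4 CPM against 79.9 to 162. The rotenone brain MR30 was high for both GADD45G (2 of 3) loci, at 7.33 CPM for Nfu_g_1_018296 and 12.7 CPM for Nfu_g_1_018341. These 2 of the 7 values are not separate, since the loci may share reads and moved together over brains (r = 0.978). The vehicle liver MC9 at 27 weeks was high for atf3 at 24.1 CPM against 1.98 to 3.88, and it was also the liver of its group with the most macrophage marker counts (1080 CPM).

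The rotenone effect on fosl1a was called as different between brain and liver by an interaction term. It was -2.60 on the log2 scale (edgeR adjusted p = 0.0187, 5 fish per group, with both tissues from the same fish). The call was lost without liver MR29 (-2.15, edgeR adjusted p = 0.0524), with library totals alone and without livers MC7 and MC8. Livers held 4 to 171 reads of fosl1a.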

How the results depend on the processing

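Counts of called members changed under the following settings. DESeq2 called 1 (main test 0) in liver from 5 to 39 weeks, in its skin minus liver difference and in liver with rotenone, 5 (main 3) in vehicle skin by age and 2 (main 1) in the brain minus liver rotenone effect. It also called 3 (main 2) in brain with rotenone and 4 (main 5) between 9-week brain and liver. The replicate block by fish gave 1 (main 0) in the skin minus liver difference from 5 to 39 weeks, and moved atf3 in 9-week skin against liver to -1.01 (adjusted p = 0.118). Without the JM109 skin the count from 5 to 12 weeks was 0, without the MC10 brain 2 in vehicle brain by age, and without livers MC7 and MC8 it was 0 in vehicle liver by age and 0 in the brain minus liver rotenone effect, where fosl1a was -2.49 (adjusted p = 0.0662). With library totals alone, chosen after the data were seen, the counts were 2 (5 to 12 weeks) and 1 (5 to 39 weeks) in untreated skin, 5 in vehicle skin by age, 0 in the brain minus liver rotenone effect and 1 in 9-week skin against liver. Batch 2 alone gave 1 in fins from 10 to 20 weeks. With single libraries left out, counts were 0 to 3 in brain and 0 to 1 in liver with rotenone, 1 to 1 in skin with rotenone, 0 to 2 in brain, 1 to 2 in liver and 1 to 4 in skin by age under vehicle, 0 to 2 for brain minus liver and 0 to 1 for skin minus liver rotenone effects. In untreated skin they were 0 to 2 (5 to 12 weeks), 1 to 1 (12 to 39), 0 to 1 (27 to 39), 1 to 2 (5 to 39) and 3 to 4 (all ages), and 0 to 1 for skin minus liver from 5 to 39 weeks. Between 9-week tissues they were 4 to 5 (brain and liver), 5 to 6 (brain and skin) and 1 to 3 (skin and liver), and 0 to 0 in the other brain, liver and skin comparisons. Fin comparisons were not run with single fish left out.

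The egr1 value in untreated skin from 5 to 39 weeks ran from -0.744 to 0.302 (the latter without JM100), and its joint call over ages was lost under DESeq2's size factors in edgeR (adjusted p = 0.0524) and without the filter (0.0548). The gadd45g call between 9-week brain and liver was lost under those size factors (adjusted p = 0.078), without the filter (0.0546) and under DESeq2 (0.058). With library totals alone its sign turned (0.314), and dusp1 between 9-week brain and liver ran from -0.135 to 0.511 with 1 library left out. DESeq2's size factors moved the median of all loci by 0.131 between brain and liver and by less than 0.1 elsewhere. Library totals moved it by up to 1.501 between tissues, by -0.51 and 0.599 in untreated liver (5 to 12 and 12 to 39 weeks) and by -0.318 in untreated skin (5 to 39 weeks). Counts over all loci ranged widely, for example from 737 to 6584 in brain with rotenone. In fins 19 of 20 pairs passed with CPM and with log2 RPKM, with the share of other locus pairs not given here. Where a cause is not named above, the cause was not tested. Depth limits fosl1a, which had as few as 4 reads in a liver and 12 in a brain.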
